A study of Homo sapiens with 7 samples.

Results

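Guide 3 is 1 of 2 guide RNAs directed against ZFP36L2 that were delivered to MOLM13, an established human acute myeloid leukemia line. It was sequenced in 2 libraries, which are compared here with 3 control libraries that carried sgRosa, described in the labels as a non-targeting guide. These 5 libraries were picked by the names of their deposited columns and make up 5 of the 7 in the series. The other 2 carried guide 5, also against ZFP36L2, and serve to test what differs between the guides. For all 7 libraries the cells were transduced, grown in RPMI-1640 with fetal bovine serum and harvested on day 6 for poly(A)-selected RNA. The labels number the guides in another way than the deposited columns, and nothing pairs the names, so the column names are kept. The source of Cas9, and whether the cells were a pool or a clone, are not given in the sources used here. Nothing says that replicates came from separate cultures, so p-values measure the spread between these libraries, which may be technical.

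ZFP36L2 belongs to the ZFP36 family of zinc finger proteins, which bind AU-rich stretches in the 3′ untranslated region (UTR) of messenger RNAs and bring in the machinery that shortens the poly(A) tail, so that the transcript decays. Its relatives are ZFP36, known as tristetraprolin, and ZFP36L1. MOLM13 carries a fusion of KMT2A (MLL), which keeps up a progenitor program with HOXA genes and MEIS1. Monocytic maturation of such cells is commonly read from CD14, the co-receptor for lipopolysaccharide, from ITGAM (CD11b), an integrin chain, and from the calcium-binding alarmins S100A8 and S100A9.

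The control libraries held 16907955, 25164359 and 22631858 reads on listed genes, the guide 3 libraries 33735298 and 38807816, and those of guide 5 36556997 and 28088053. Levels are FPKM, reads scaled to library depth and to each kilobase of the whole gene with introns, so they are low for long genes. Of 11408 genes, 6783 reached an FPKM of 1 in 2 or more libraries and were tested with limma on log2(FPKM + 0.5), with p adjusted by Benjamini-Hochberg over all of them and a threshold of 0.05. Differences are on that scale, which understates the change of genes near 0. The filter admits a gene that is near 0 in the controls where the guide libraries are higher, so counts among tested members of a list are a description. Control replicate 2 stood apart from the other libraries. Its weight in an array-weight estimate was 0.15, against 0.56 to 1.97 elsewhere, and 0.16% of its reads fell on 3 mitochondrial pseudogenes, against 0.0463% to 0.0828%.

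ZFP36L2 transcript was higher, not lower, in the libraries of both guides. It stood at 80.2, 79.3 and 73.9 FPKM in the controls, at 269 and 322 in the guide 3 libraries and at 174 and 164 in the guide 5 libraries. The 3 groups did not overlap, and the order was guide 3, guide 5, control. With guide 3 the log2 difference from control was 1.91 (SE 0.20, adjusted p = 6.6e-05 by limma), and with guide 5 it was 1.12. The difference between the guides, 0.80 (SE 0.22), did not pass the test (adjusted p = 0.18), but did without control replicate 2 (adjusted p = 0.0397, range 0.00047 to 1.0 over 22 alternatives). Reads over the gene do not show whether the protein was lost, so groups are called by their guide and not as knockouts. Both relatives also rose with guide 3. ZFP36 went from 27.9, 44.7 and 33.2 FPKM in the controls to 96.0 and 111 (log2 difference 1.57, SE 0.23, adjusted p = 0.00076). ZFP36L1 went from 0.0245, 0.101 and 0.0279 to 1.13 and 0.911 (1.46, SE 0.12, adjusted p = 1.5e-05). Neither relative passed the test between the guides.

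With guide 3, 1593 genes were higher than in control, 23.5% of those tested, and 1166 were lower, 17.2%. With guide 5, against the same 3 controls, 841 were higher (12.4%) and 503 lower (7.42%). The split with guide 3 turned with the scaling. It was 1311 higher and 1825 lower after quantile normalization, 1045 and 2557 with every library brought to the same sum of FPKM, which moved the median of all genes from 0.04 to −0.23, and 1106 and 1506 when GC content and length were corrected for. Without guide 3 replicate 1 the counts were 953 and 329, and without guide 3 replicate 2 they were 649 and 120. Over all 11408 genes with FPKM, before the filter, the authors' deposited table gives 2340 higher and 2209 lower with guide 3 at a false discovery rate below 0.05.

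The calls depended on base composition. In the decile of genes lowest in transcript GC (26.7% to 38.6%), 2.5% were higher with guide 3 than in control and 50.4% were lower. In the decile highest in GC (61.9% to 73.5%), 64.1% were higher and 0 genes lower. The median difference between guide 3 and guide 5 went the same way, from −0.16 in the lowest decile to 0.39 in the highest. Whether this has a technical source was not tested, and values corrected for GC content and length are set beside the lists below.

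**Figure D1:**
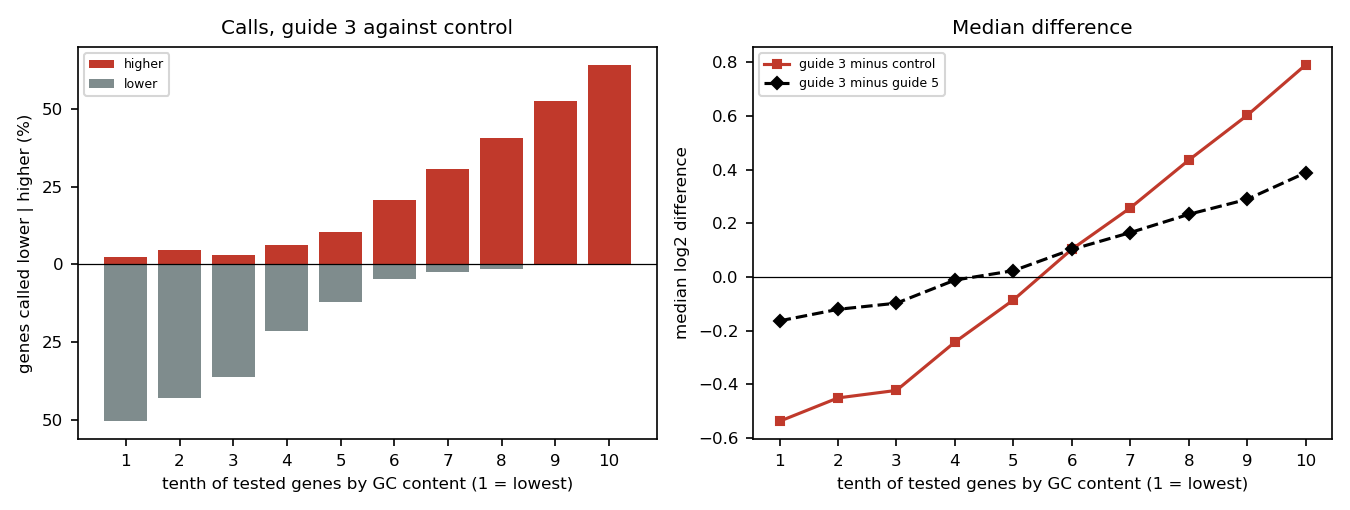
Left, the percentage of genes called higher (above 0) or lower (below 0) with guide 3 than in control for each decile of the 6783 tested genes by transcript GC content. Right, the median log2 difference in each decile for guide 3 minus control (squares) and guide 3 minus guide 5 (diamonds). Both medians climb from the decile lowest in GC to the highest, guide 3 minus control from −0.54 to 0.79.

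The 12 highest differences from control were picked among called genes whose guide 3 and control libraries did not overlap. They included CD14, FCN1, S100A8, S100A9 and S100A12, all markers of monocytes or granulocytes, and IFI6, an interferon-induced gene, was second. CD14 stood at 0.739, 0.261 and 1.16 FPKM in the controls and at 91.8 and 81.1 with guide 3, a log2 difference of 6.22 (SE 0.29, adjusted p = 4.2e-07 by limma). FCN1 encodes ficolin-1, a lectin secreted by monocytes, and stood at 0.0709, 0.0670 and 0.117 in the controls and at 21.1 and 17.1 with guide 3 (5.06, SE 0.16, adjusted p = 1.4e-07). S100A9, at 5.27, 3.74 and 5.42 in the controls, reached 172 and 133 (4.85, SE 0.22, adjusted p = 3.5e-07). In each of the 3 genes both guide 3 libraries lay far above the highest control. Its partner S100A8 went from 6.49, 7.0 and 6.59 to 229 and 167 (4.77, SE 0.20). S100A12, an alarmin of granulocytes and monocytes, had 1, 0 and 3 reads in the controls and 1126 and 897 with guide 3 (4.84, SE 0.20). These 3 S100 genes lie within 1 cluster on chromosome 1, at chr1:153357854-153361027 (S100A9, plus strand), chr1:153373706-153375649 (S100A12, minus strand) and chr1:153390032-153391188 (S100A8, minus strand) of GRCh38.

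Other genes among the 12 highest were IFI6 (5.29), CCL2 (4.41), a chemokine that draws monocytes, SIGLEC1 (4.07), a sialic acid receptor of macrophages, and APOE (3.87), a lipid carrier. ACP5 (3.65), an acid phosphatase of osteoclasts and macrophages, was also there. The ribosomal pseudogene RPL7AP64 (4.02) shares sequence with its parent, so its reads are uncertain. ITGAM stood at 0.163, 0.207 and 0.231 FPKM in the controls and at 2.52 and 2.05 with guide 3 (1.99, SE 0.13, adjusted p = 3.4e-06). Libraries of guide 3 and control did not overlap in ITGAM, while for the 12 highest this was a condition of the choice. Correction for GC and length made the fold change, taken back from the log2 scale, at least 1.5-fold smaller in some genes. Their corrected log2 differences were 5.61 for CD14, 4.65 for IFI6, 4.17 for S100A9, 3.42 for SIGLEC1, 2.74 for APOE and 2.89 for ACP5. Each was still called. In bulk RNA, more cells of a type and more RNA per cell cannot be told apart.

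At the other end stood SHISA2, a regulator of receptor traffic in the endoplasmic reticulum, at 5.80, 5.46 and 4.07 FPKM in the controls and 0.417 and 0.581 with guide 3 (−2.48, SE 0.19, adjusted p = 8.8e-06). MEST, an imprinted gene of the mesoderm, went from 4.26, 4.78 and 3.76 to 1.05 and 0.961 (−1.66, SE 0.17). CDCA7, a DNA replication-linked zinc finger gene, went from 14.1, 17.9 and 12.3 to 4.30 and 4.76 (−1.59, SE 0.19). The guide 3 libraries were below every control in each, which the choice of the 10 lowest required. The other 7 of the 10 lowest were IGSF10, CHML, SPIN4, BAG2, TRDC, TEX15 and MT1H, between −1.71 and −1.49. CHML overlaps OPN3 on the same strand, and SPIN4 overlaps LINC01278. MT1H, a metallothionein, was at −2.09 after the GC correction and lost its call without either guide 3 library (adjusted p = 0.0525 and 0.0668).

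**Figure D2:**
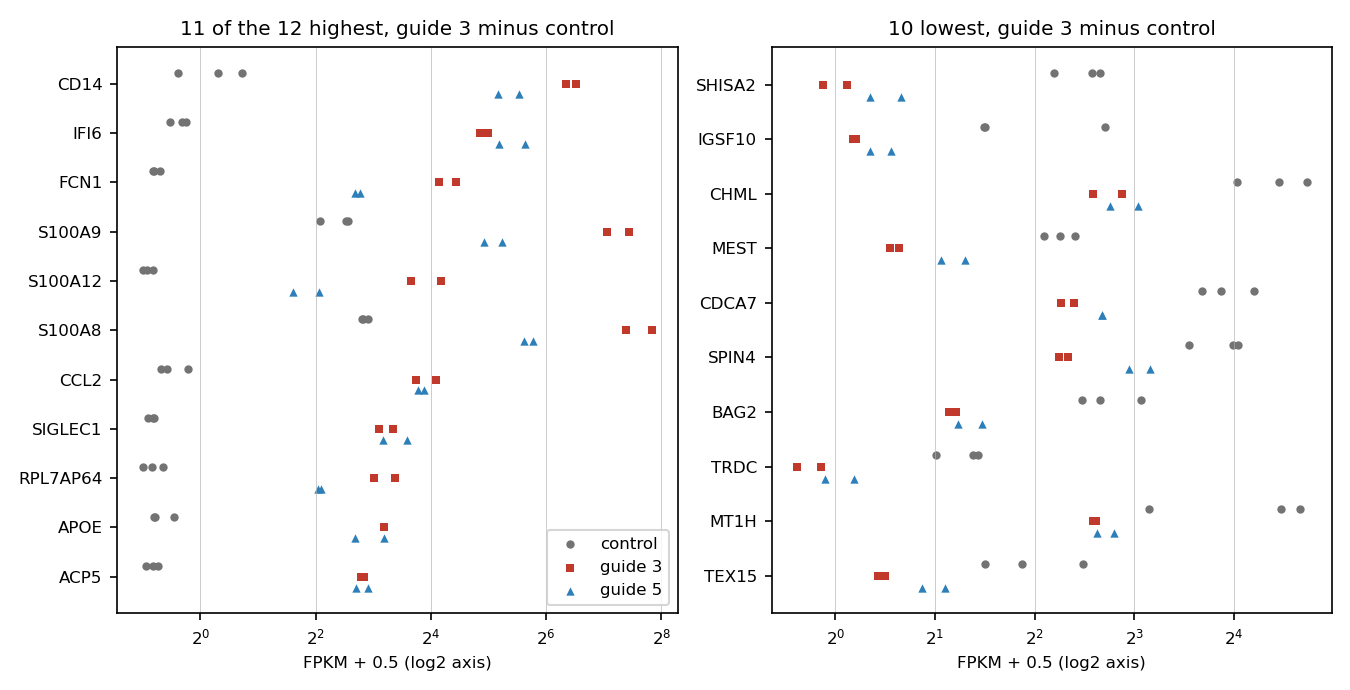
FPKM + 0.5 on a log2 axis in each of the 7 libraries for 11 of the 12 highest (left) and 10 lowest (right) differences of guide 3 minus control. Circles are control libraries, squares guide 3 and triangles guide 5. In the 21 genes drawn the squares lie outside the range of the circles, which was a condition of their choice.

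Of 27 tested monocyte and macrophage markers (38 of 44 listed are in the table), 23 were higher with guide 3 than in control, 0 lower and 4 not called, with a median of 1.74 beside 0.04 for all tested genes. Over all tested genes 23.5% were higher with guide 3 and 12.4% with guide 5. The marker list gave 19 higher and a median of 1.21 with guide 5. Beside CD14 and FCN1 it held LYZ, encoding lysozyme, at 1138, 615 and 837 FPKM in the controls and 3131 and 2483 with guide 3 (1.74, SE 0.29, adjusted p = 0.0017). LYZ was clear of every control in both libraries, but did not pass after quantile normalization (adjusted p = 0.163, the highest over its alternatives, which began at 9.1e-05). After correction for GC content and length 21 members were higher and 1 lower, and without control replicate 2 there were 24 higher.

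Beside 23.5% higher and 17.2% lower of all tested genes, mature granulocyte markers gave 13 higher, 1 lower and 1 not called of 15 tested (20 of 38 in the table). Their median was 2.44 against 1.93 with guide 5. After the GC correction these medians were 1.82 and 1.76, with 11 members higher and 1 lower with guide 3. ORM1, encoding an acute phase plasma protein stored in neutrophil granules, stood at 0.411, 0.547 and 0.216 FPKM in the controls and at 12.3 and 8.13 with guide 3 (3.58, SE 0.24). NCF1, a subunit of the NADPH oxidase, stood at 0.222, 0.164 and 0.336 and at 5.74 and 5.98 (3.11, SE 0.16). Reads of NCF1 cannot be divided with certainty from its near-identical pseudogene copies. TREM1, a receptor that amplifies inflammatory signals in phagocytes, went from 0.101, 0.202 and 0.148 to 4.39 and 3.65 (2.79, SE 0.15). Controls and guide 3 libraries were apart in all 3 genes. Once GC content was corrected for, NCF1 was at 2.25. The 1 member called lower was PROK2, named after its value was seen, at −0.46 (adjusted p = 0.0485 by limma). It was not called without control replicate 1, or without any 1 of the 4 guide libraries.

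Primary granule genes, which mark promyelocytes, had shares of calls near those of all tested genes (23.5% and 17.2%): 4 of 17 tested were higher with guide 3, 3 lower and 10 not called. ELANE, encoding neutrophil elastase, went from 35.9, 36.3 and 58.4 FPKM in the controls to 125 and 189 with guide 3 (1.85, SE 0.30, adjusted p = 0.0013). CEBPE, a factor of terminal granulocyte maturation, went from 0.887, 0.607 and 1.03 to 3.79 and 4.47 (1.80, SE 0.21, adjusted p = 0.00014). NUCB2, encoding a calcium-binding protein, fell from 3.30, 5.75 and 3.11 to 1.30 and 1.14 (−1.36, SE 0.25, adjusted p = 0.0026). In the GC-corrected fit, ELANE was at 0.76 and CEBPE at 0.93, both still called, and 7 members were higher and 6 lower. Without control replicate 2, 9 were higher.

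All 7 tested members of the S100 family (9 of 18 in the table) were higher with guide 3 than in control. Their median was 2.57 against 1.61 with guide 5, where 5 of 7 were called. Over all tested genes 23.5% were higher with guide 3 and 12.4% with guide 5. S100A6 stood at 19.9, 5.31 and 16.3 FPKM in the controls and at 85.2 and 64.4 with guide 3 (2.57, SE 0.44, adjusted p = 0.0018). Control replicate 2 was the lowest library there, and after the GC correction S100A6 was at 1.68 and 6 members of the family were called higher.

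A list of Fc receptors, Src family kinases and other myeloid receptors and adaptors gave 17 higher and 0 lower of 22 tested, with a median of 1.37. Shares over all tested genes were 23.5% higher and 17.2% lower. Here TYROBP, the DAP12 adaptor, stood at 13.3, 20.4 and 19.8 FPKM in the controls and at 130 and 123 with guide 3 (2.82, SE 0.23, adjusted p = 1.1e-05). FCER1G, the common Fc receptor gamma chain, went from 0.919, 2.75 and 1.42 to 22.2 and 17.2 (3.27, SE 0.30). FGR, a Src family kinase of myeloid cells, went from 0.479, 0.655 and 0.758 to 9.48 and 8.22 (3.05, SE 0.18), and LILRA5, an activating leukocyte receptor, from 0.0267, 0.0695 and 0.115 to 6.01 and 4.95 (3.39, SE 0.15). None of the 4 overlapped with control. After the GC correction TYROBP was at 2.0, and 16 members were higher and 1 lower.

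Lysosomal genes followed, with 21 of 31 higher and 1 lower (median 0.945). For this list and those below, the shares over all tested genes were 23.5% higher and 17.2% lower with guide 3. CTSD, encoding the protease cathepsin D, went from 6.34, 8.39 and 10.4 FPKM to 54.0 and 58.4 (2.70, SE 0.22), GRN, encoding progranulin, from 41.8, 49.6 and 68.6 to 306 and 301 (2.53, SE 0.25). Corrected for GC content, CTSD was at 1.83 and GRN at 1.76, with 22 members higher and 0 lower, and without guide 3 replicate 1 there were 14 higher. Of myeloid transcription factors, 18 of 25 were higher and 1 lower (median 1.13), with KLF2 at 3.14, CEBPB at 2.65 and JUN at 2.56. The median GC of these factors was 56.1%, and among tested genes with 55.9% to 58.8% GC, 40.6% were higher. Their median difference was 0.445 after the GC correction. Once GC content was corrected for, KLF2 was at 2.21 and CEBPB at 1.69, with 12 members higher and 4 lower, and without guide 3 replicate 2 there were 12 higher. Of immediate early genes, induced within minutes of a stimulus, 16 of 23 were higher and 0 lower. They numbered 8 without guide 3 replicate 2, with BTG2 (2.21) and JUNB (1.97) among those called with all libraries. After the GC correction 13 were higher and 2 lower, with JUNB at 1.04. Of MHC class II genes and their regulators, 6 of 9 were higher, HLA-DRA from 1.03, 1.09 and 1.09 FPKM to 9.20 and 7.37 (2.48, SE 0.17). RFXAP, a subunit of the factor that switches on those genes, was the 1 lower (−1.15), after the GC correction 4 were higher, and without guide 3 replicate 1 there were 3. HLA genes share sequence with each other, so their counts are uncertain.

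Among interferon-stimulated genes 28 of 34 were higher with guide 3 and 0 lower, with a median of 1.43. With guide 5, 31 were higher, with a median of 1.98. Over all tested genes 23.5% were higher with guide 3 and 12.4% with guide 5. IFI6 went from 0.298, 0.197 and 0.346 FPKM in the controls to 28.5 and 31.4 with guide 3, and IFI27 from 0.0729, 0.0118 and 0.0311 to 6.04 and 4.42 (3.4, SE 0.18). ISG15, a ubiquitin-like modifier, went from 8.26, 1.88 and 11 to 63.0 and 60.9 (3.33, SE 0.53, adjusted p = 0.0012). Control replicate 2 was the lowest library of ISG15, and all controls lay below guide 3. With GC content corrected for, ISG15 was at 2.32, and 33 members were higher and 0 lower. Targets of p53 gave 7 higher, 4 lower and 7 not called of 18 tested, beside 23.5% and 17.2% of all tested genes. The balance turned after the GC correction, with 4 higher and 6 lower, and the counts were 2 and 0 without guide 3 replicate 2 and 4 and 1 without guide 3 replicate 1. CDKN1A, the cell cycle inhibitor p21, stood at 11.8, 9.36 and 13.6 in the controls and at 68.9 and 66.1 with guide 3 (2.51, SE 0.21, and 1.92 after the GC correction). Of inflammatory transcripts known for AU-rich UTRs, 16 of 21 were higher and 0 lower (median 1.19). IL1B, the cytokine interleukin-1 beta, stood at 0.370, 0.713 and 0.355 in the controls and at 12.7 and 9.43 (3.57, SE 0.21). THBD, encoding thrombomodulin, stood at 9.86, 11.2 and 10.6 and at 78.2 and 86.7 (2.91, SE 0.18), and guide 3 was above control in both genes. Corrected for GC content, 14 were higher and 0 lower.

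Lists on proliferation and on the leukemic program held more lower than higher calls. Shares over all tested genes were 17.2% lower and 23.5% higher with guide 3, and 7.42% and 12.4% with guide 5. Of 18 tested genes of the HOXA and MLL fusion program, 10 were lower with guide 3, 0 higher and 8 not called (median −0.70), against 1 lower and 1 higher with guide 5 (median −0.42). FLT3, the receptor tyrosine kinase of progenitors, fell from 5.42, 6.37 and 4.52 FPKM to 2.59 and 2.49 (−0.95, SE 0.18, adjusted p = 0.0035). HOXA13 fell from 1.32, 2.36 and 1.46 to 0.526 and 0.558 (−1.06, SE 0.19), and HOXA5 from 1.51, 2.22 and 1.92 to 0.769 and 0.699 (−0.94, SE 0.16). All 3 lay below every control. HOXA9, named after its values were seen, stood at 8.4, 11.3 and 7.89 in the controls and at 6.36 and 7.03 with guide 3 and did not pass (−0.42, SE 0.20). The direct comparison with guide 5 called 0 of the 18 with all libraries. With the 4 guide libraries alone it called 4, all lower, beside 3.64% of all tested genes. FLT3 lost its call without guide 3 replicate 2 (adjusted p = 0.0538, the highest over its alternatives, which began at 0.00011), where 3 members were lower, and without guide 3 replicate 1 there were 5. After the GC correction 13 were lower and 1 higher.

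S phase genes were lower in 22 of 37 cases and higher in 0 (median −0.65), among them MCM6, a subunit of the replicative helicase, from 12.5, 12.2 and 9.91 FPKM to 4.37 and 4.79 (−1.24, SE 0.18, adjusted p = 0.00069). Genes of G2 and M phase were lower in 15 of 29 and higher in 0 (median −0.61), while with guide 5 limma called 0 of 29. Over all tested genes 17.2% were lower with guide 3 and 7.42% with guide 5. The median GC of the G2 and M list was 43.2%, and among tested genes with 41.2% to 43.8% GC, 36.3% were lower with guide 3. TOP2A, the topoisomerase that untangles chromosomes, went from 31.8, 39.7 and 24.1 to 15.7 and 13.9 with guide 3 (−1.06, SE 0.23, adjusted p = 0.0065) and stood at 20.4 and 25.1 with guide 5. Guide 3 lay below both other groups for TOP2A. Even so, 0 of 29 passed the direct test of the guides with all libraries. With the 4 guide libraries alone 8 of 29 were lower, beside 3.64% of all tested genes. The contrast between 15 and 0 calls is thus not shown to be a difference. MYC targets and nucleolar genes of ribosome biogenesis were lower in 17 of 37 and higher in 0 (median −0.52, the same with guide 5), with HSPD1 at −1.11 and NOP58 at −1.05. HSPD1 and HSPE1 overlap on opposite strands, and it is not stated whether reads were counted by strand. Leaving out guide 3 replicate 1 or 2 left 7 or 9 S phase, 4 or 0 G2 and M phase and 5 or 2 ribosome biogenesis genes called lower, and TOP2A and NOP58 then lost their calls without replicate 2 (adjusted p = 0.0793 and 0.0933, the highest over their alternatives). In the GC-corrected fit, 31 S phase, 14 G2 and M phase and 27 MYC and nucleolar genes were lower and 0 higher. That fit called 1506 of all 6783 tested genes lower.

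**Figure D3:**
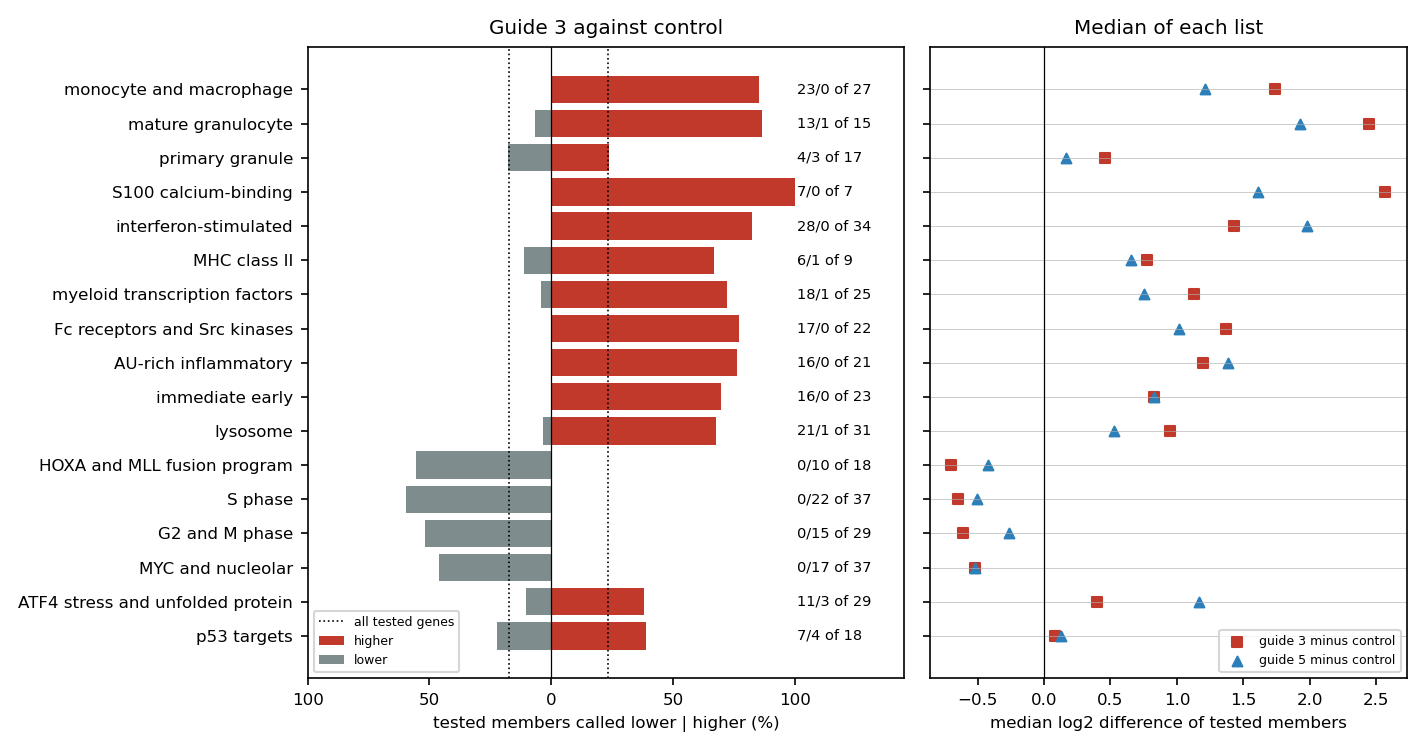
Left, the percentage of tested members of each gene list called higher (right of 0) or lower (left of 0) with guide 3 than in control, with counts as higher/lower of tested, and dotted lines at the shares of all tested genes, 23.5% and 17.2%. Right, the median log2 difference of each list for guide 3 minus control (squares) and guide 5 minus control (triangles), which share the 3 controls. The square is right of the triangle for the monocyte, granulocyte and S100 lists. It is also right for the primary granule, MHC class II, myeloid transcription factor, Fc receptor and Src kinase, and lysosome lists. It is left for the interferon-stimulated, ATF4, AU-rich, p53, HOXA, S phase and G2 and M phase lists. For the immediate early and MYC lists the square and triangle nearly coincide.

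The direct comparison of the guides, which does not use the control means, called 19 genes higher with guide 3 (0.280% of those tested) and 31 lower (0.457%). All 19 were called against control with each guide, 18 of them higher and 1, the pseudogene NOL5BP, lower. S100A9 led them. Its guide 5 libraries stood at 37.1 and 29.8 FPKM, below the 172 and 133 of guide 3 (2.17, SE 0.24, adjusted p = 0.0018). S100A12 stood at 3.67 and 2.54 with guide 5 and at 17.7 and 12.1 with guide 3 (2.09, SE 0.22, adjusted p = 0.0016). S100A8 stood at 54.4 and 48.8 against 229 and 167 (1.91, SE 0.22, adjusted p = 0.0018), and FCN1 at 6.31 and 5.96 against 21.1 and 17.1 (1.56, SE 0.18, adjusted p = 0.0021). In each of these 4 genes guide 3 was highest, guide 5 intermediate and control lowest, with no overlap. They are the 4 of the 19 called in each alternative in which they were tested, including those without 1 library.

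HK3, a hexokinase of myeloid cells, stood at 5.51 and 4.81 FPKM with guide 3 and 1.78 and 1.62 with guide 5 (1.36, SE 0.15, adjusted p = 0.0018). DES, encoding the muscle filament desmin, was at 0, 0 and 0.0245 in the controls, 1.67 and 1.46 with guide 3 and 0.426 and 0.418 with guide 5 (1.16, SE 0.12, adjusted p = 0.0010). RNASE1, a secreted ribonuclease, was at 6.86 and 4.96 against 1.97 and 1.64 (1.46, SE 0.22, adjusted p = 0.013). These genes were also apart in all libraries. HK3 and DES were called without each library in turn, but HK3 was not called with recovered CPM (adjusted p = 0.167, the highest over its 21 alternatives). RNASE1 was not called without guide 3 replicate 1 (adjusted p = 0.117) or without guide 5 replicate 1 (0.0512) or 2 (0.153). With GC content corrected for, DES did not pass (adjusted p = 0.0895, the highest over its 21 alternatives).

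Further genes among the 19, named here after their values were seen, were MMP25, a membrane-bound protease of leukocytes (1.07), LGALS3, the lectin galectin-3 (1.04), FBP1, an enzyme of gluconeogenesis (1.01), SIGLEC9 (0.73), an inhibitory sialic acid receptor, and LILRB3 (0.72), an inhibitory leukocyte receptor. MMP25 overlaps MMP25-AS1, and LILRB3 overlaps RPS9, on opposite strands. Each of the 5 was higher with guide 3 in every library and lost its call without at least 1 library, with adjusted p up to 0.3 for MMP25, 0.197 for LGALS3, 0.235 for FBP1, 0.55 for SIGLEC9 and 0.392 for LILRB3, all without guide 5 replicate 2. After the GC correction MMP25 (adjusted p = 0.0758 by limma) and LILRB3 (0.143) were not called, while LGALS3, FBP1 and SIGLEC9 were. The remaining pseudogenes LILRP1 (1.15), SLC9A7P1 (1.13) and RPL7AP64 (1.12) are uncertain for their shared sequence, and none of them was called after that correction.

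Most monocyte and granulocyte markers did not pass this test. CD14 stood at 45.8 and 35.5 FPKM with guide 5 against 91.8 and 81.1 with guide 3, a difference of 1.09 (SE 0.32, adjusted p = 0.23). It passed without control replicate 2 (adjusted p = 0.0274, range 7.0e-05 to 1.0 over 22 alternatives). ITGAM, at 1.42 and 1.36 against 2.52 and 2.05, differed by 0.55 (SE 0.15, adjusted p = 0.17) and also passed without control replicate 2 (adjusted p = 0.0494, range 0.00047 to 1.0 over 21 alternatives). Guide 3 was above guide 5 in both libraries of both genes.

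By list, 1 of 27 monocyte markers (FCN1), 1 of 15 granulocyte markers (S100A12) and 3 of 7 S100 genes were called higher with guide 3 than with guide 5, and 0 lower. The shares of all tested genes were 0.28% higher and 0.457% lower. Medians of these lists were 0.38, 0.51 and 0.96. They compare with 0.07 for all tested genes, 0.39 for the decile highest in GC and 0.42 for the Fc receptor and Src kinase list. Both guide 3 libraries were above both of guide 5 for 18 monocyte, 12 granulocyte and 7 S100 members, beside 40.6% of all tested genes. They were below for 0, 1 and 0, beside 23.1%. The fit of the 4 guide libraries alone, whose spread does not rest on the controls, called 620 genes higher with guide 3 (9.14% of those tested) and 247 lower (3.64%). Of the lists it called 11 monocyte, 7 granulocyte, 6 S100 and 12 of 22 genes of the Fc receptor and Src kinase list higher, and 0 lower in each. With all libraries but control replicate 2 these counts were 5, 3, 6 and 5. The fit of the 4 guide libraries alone has 2 residual degrees of freedom before moderation. The counts of 19 and 31 became 130 and 89 without control replicate 2, and 6 and 17 without guide 3 replicate 1 or guide 5 replicate 2. Without guide 3 replicate 2 it was 9 and 13, without guide 5 replicate 1 it was 9 and 16, and without control replicate 1 it was 11 and 25. Under the same sum of FPKM the split was 10 higher and 59 lower, and after the GC correction 17 and 80. The medians of the 3 lists stayed above 0, at 0.34, 0.21 and 0.49, after the GC correction.

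**Figure D4:**
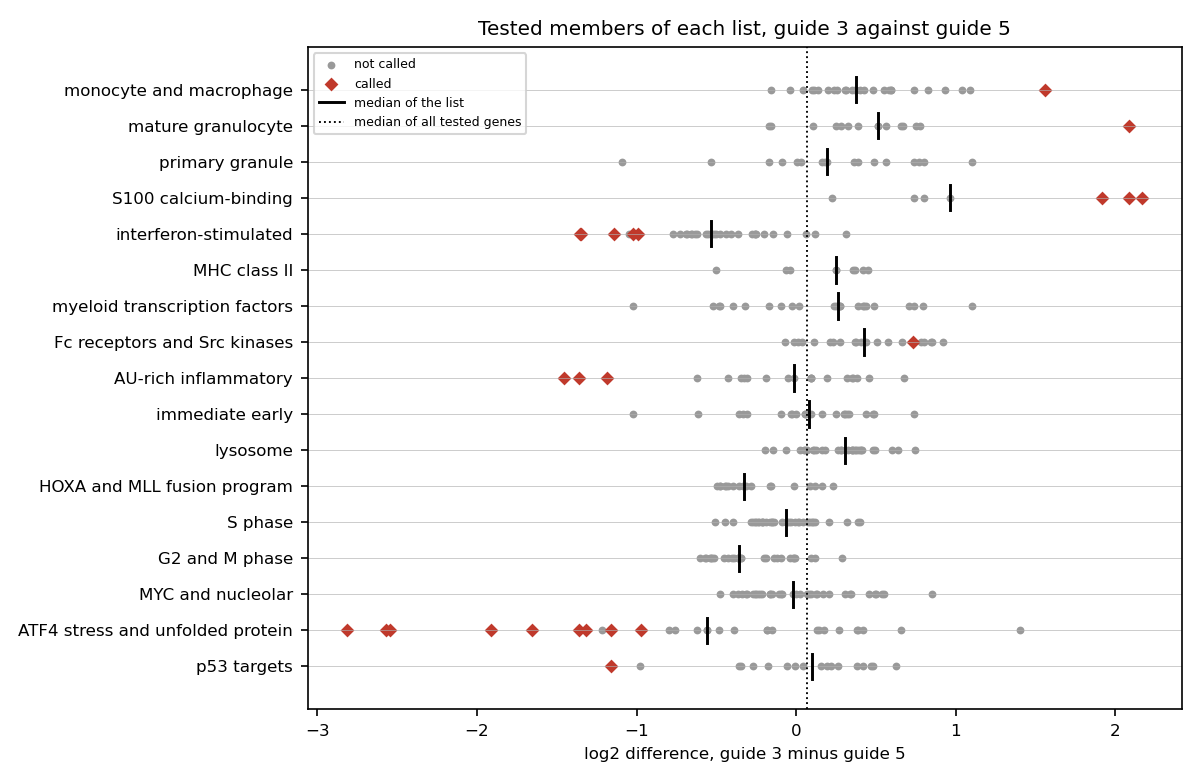
The log2 difference of guide 3 minus guide 5 for every tested member of each gene list (points), with called members as diamonds, the median of each list as a bar and the median of all tested genes, 0.07, as a dotted line. The 3 called S100 genes lie near 2 at the right, and the 9 called members of the ATF4 list lie at the left, down to −2.81.

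The genes lower with guide 3 than with guide 5 were led by genes of the response to ATF4, the transcription factor of the integrated stress response, which is switched on by shortage of amino acids or by unfolded protein. Of 29 tested genes of ATF4 stress and the unfolded protein response, 9 were called lower than with guide 5 and 0 higher (median −0.56): DDIT4, STC2, CHAC1, TRIB3, PSAT1, VLDLR, PHGDH, SESN2 and XBP1. The shares of all tested genes were 0.457% lower and 0.28% higher. Both guide 3 libraries were below both of guide 5 for 18 of the 29, beside 23.1% of all tested genes. They were above for 7, beside 40.6%. The fit of the 4 guide libraries alone called 15 of the 29 lower and 2 higher, beside 3.64% and 9.14% of all tested genes. Against control, 11 were higher and 3 lower with guide 3 (median 0.40), and 18 higher and 3 lower with guide 5 (median 1.17). Shares over all tested genes were 23.5% higher and 17.2% lower with guide 3, and 12.4% and 7.42% with guide 5. In the GC-corrected fit 1106 of all 6783 tested genes were higher and 1506 lower with guide 3. The count of 11 was 7 without guide 3 replicate 1 and 5 without guide 3 replicate 2, and after the GC correction 7 were higher and 4 lower. The count of 9 was 6 without either of them, 13 without control replicate 2 and 12 after the GC correction.

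DDIT4, an inhibitor of mTORC1 induced by stress, stood at 4.49, 2.36 and 5.15 FPKM in the controls, 7.61 and 10.9 with guide 3 and 71.3 and 63.1 with guide 5. Guide 3 minus guide 5 was −2.81 (SE 0.31, adjusted p = 0.0018 by limma). STC2, a secreted glycoprotein induced in the unfolded protein response, stood at 0.110, 0.0379 and 0.0637, at 0.266 and 0.235, and at 4.12 and 3.78 (−2.57, SE 0.13, adjusted p = 1.2e-05). Both were above every control with guide 3 (1.16 and 0.40, each past the threshold) and higher again with guide 5 (3.97 and 2.96 over control). CHAC1, which degrades glutathione, stood at 0.502, 0.290 and 0.369, at 1.13 and 1.97, and at 12.9 and 9.75 (−2.55, SE 0.23, adjusted p = 0.00093). ADM2, a peptide hormone gene of the calcitonin family that is not on the list, stood at 0.332, 0.105 and 0.285, at 0.749 and 0.947, and at 6.69 and 4.52 (−2.16, SE 0.22). Guide 3 again lay between control and guide 5 in each. After the GC correction none of these 4 genes was called higher with guide 3 than in control, while each stayed lower than with guide 5. For CHAC1 the rise over control (1.19) was also not called without guide 3 replicate 2 (adjusted p = 0.0524, range 7.8e-06 to 0.166 over its alternatives).

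Other genes were higher than control with guide 5 and not called higher with guide 3. PSAT1, an enzyme of serine synthesis, stood at 3.64, 3.5 and 3.52 FPKM in the controls, 2.98 and 3.01 with guide 3 and 10.4 and 10.7 with guide 5 (guide 3 minus guide 5 −1.66, SE 0.17, adjusted p = 0.0012). CTH, which makes cysteine and is not on the list, stood at 0.245, 0.22 and 0.194, at 0.102 and 0.0895, and at 1.28 and 1.38 (−1.62, SE 0.11, adjusted p = 9.9e-05). For both, guide 5 was above every control while guide 3 was below each control without passing the test (adjusted p = 0.28 and 0.057). For CTH, the authors' deposited table gives a log2 fold change of −1.20 with guide 3 (false discovery rate 0.0031). With guide 5 it gives 2.59 (false discovery rate 5.1e-06), so there CTH passes in opposite directions with the guides. TRIB3, a pseudokinase that curbs ATF4, stood at 2.18, 1.42 and 2.30, at 2.41 and 3.15, and at 12.5 and 11.1 (−1.91, SE 0.23, adjusted p = 0.0025). ALDH1L2, an enzyme of mitochondrial folate metabolism also outside the list, differed by −1.5, with guide 3 at 0.701 and 0.715 within the control range of 0.675 to 1.32. Its call was lost without guide 3 replicate 1 (adjusted p = 0.0695), guide 3 replicate 2 (0.0624) or guide 5 replicate 2 (0.0569). The long non-coding RNA CTD-2529O21.1 (−1.97) overlaps TBC1D16 on the same strand.

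Among the 31, 12 were called in each alternative in which they were tested: DDIT4, STC2, CHAC1, ADM2, CTD-2529O21.1, TRIB3, PSAT1, CTH, GPT2, VLDLR, IFI44 and IFI44L. GPT2, a mitochondrial transaminase (−1.49), and VLDLR, a lipoprotein receptor (−1.36), are named after their values were seen. Against control, 17 of the 31 were higher with guide 3, 4 lower and 10 not called, while with guide 5 28 were higher, 0 lower and 3 not called.

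Interferon-stimulated genes rose less with guide 3 than with guide 5 in 5 of 34 cases and more in 0 (median difference −0.53). Of all tested genes, 0.457% were called lower with guide 3 than with guide 5 and 0.28% higher. IFI44L stood at 0.00823, 0.00713 and 0.00156 FPKM in the controls, 0.333 and 0.199 with guide 3 and 1.33 and 1.58 with guide 5 (−1.36, SE 0.13, adjusted p = 0.00093). Its neighbor IFI44 differed by −1.35 (SE 0.13, adjusted p = 0.00093), and IFITM1, which blocks virus entry, by −1.14 (SE 0.14, adjusted p = 0.0024), though it overlaps IFITM2 on the same strand. OAS2 (−1.02) and LGALS3BP (−0.99), named after their values were seen, were the other two, and lost the call without guide 3 replicate 2 (adjusted p = 0.412 and 0.115) among others. The count of 5 was 8 without control replicate 2 and 3 without guide 3 replicate 2 or guide 5 replicate 1. In 28 of the 34 genes both guide 3 libraries were below both of guide 5, beside 23.1% of all tested genes. In 1 they were above, beside 40.6% of all tested genes.

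Of inflammatory transcripts with AU-rich UTRs, 3 of 21 were lower with guide 3 than with guide 5 and 0 higher. The shares of all tested genes were 0.457% lower and 0.28% higher. VEGFA, the vascular growth factor, stood at 7.79 and 7.77 FPKM against 23.0 and 21.5 (−1.46, adjusted p = 0.048). CXCL10, an interferon-induced chemokine, stood at 3.21 and 2.24 against 7.14 and 8.26 (−1.36, adjusted p = 0.023), and PIM1, a serine kinase, at 18.8 and 24.2 against 51.1 and 47.4 (−1.19, adjusted p = 0.026). Guide 3 was below guide 5 in every library of the 3 genes. None was called without guide 3 replicate 1, guide 3 replicate 2, guide 5 replicate 1 or guide 5 replicate 2 (adjusted p up to 0.287 for VEGFA, 0.315 for CXCL10 and 0.421 for PIM1), and VEGFA and PIM1 also missed the threshold without control replicate 1 (0.0962 and 0.053).

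**Figure D5:**
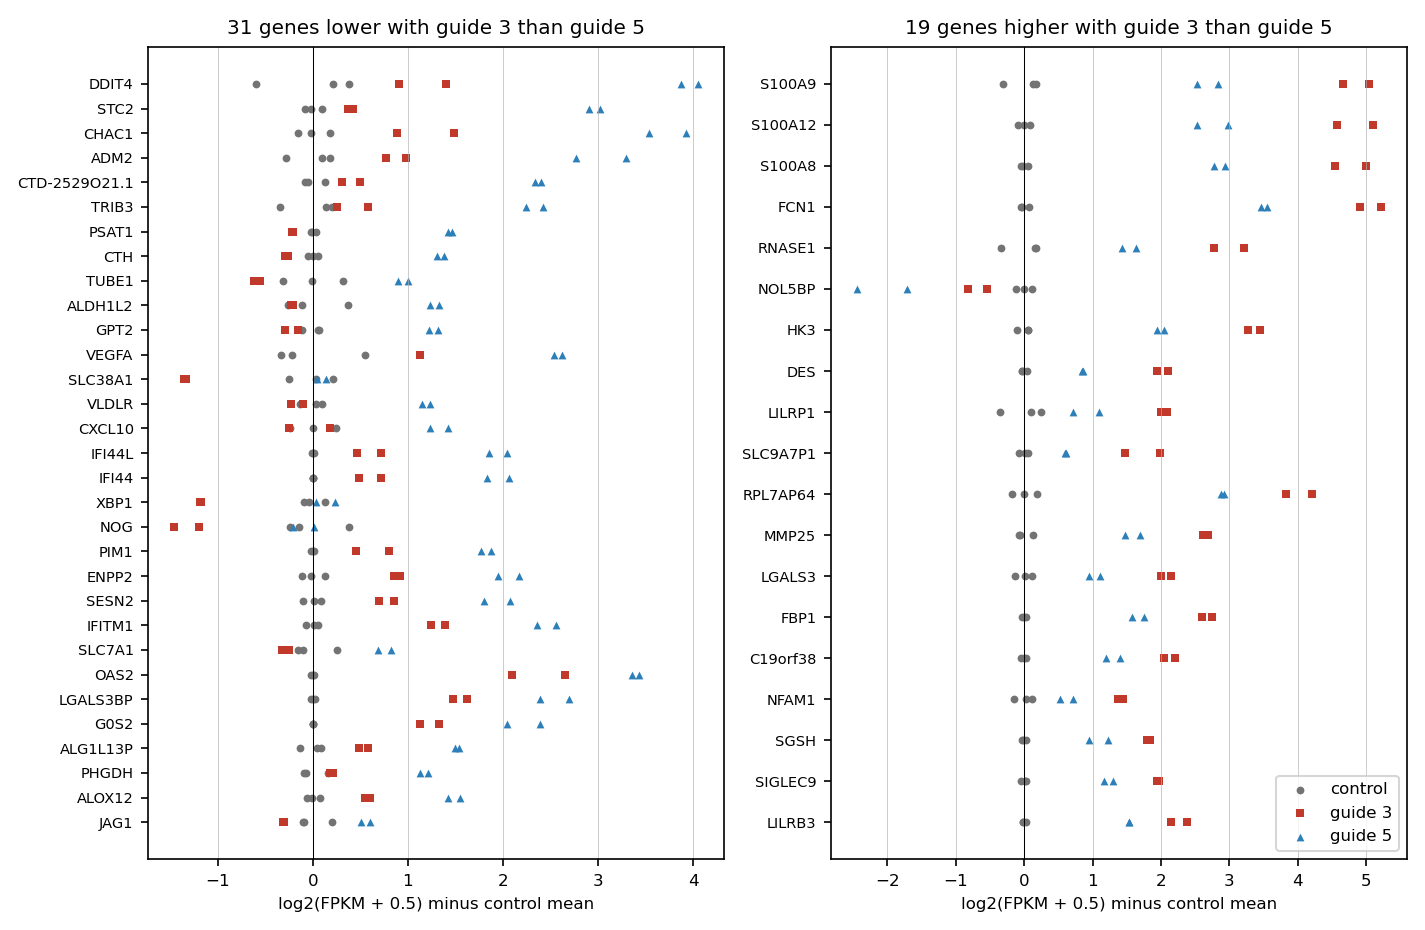
log2(FPKM + 0.5) minus the control mean in each of the 7 libraries (circles control, squares guide 3, triangles guide 5) for the 31 genes lower (left) and the 19 higher (right) with guide 3 than with guide 5. At the right the squares lie beyond the triangles except for NOL5BP, which fell less with guide 3, and at the left the squares lie below the triangles in every gene, and for 9 of them, PSAT1, CTH, TUBE1, GPT2, SLC38A1, XBP1, NOG, SLC7A1 and JAG1, also below all control libraries.

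In the limma fit of all libraries TUBE1, encoding epsilon-tubulin of the centrioles, was the 1 gene called in opposite directions with the guides. It stood at 1.5, 2.0 and 1.12 FPKM in the controls, 0.867 and 0.804 with guide 3 (−0.59, SE 0.19, adjusted p = 0.032) and 3.23 and 3.53 with guide 5 (0.95, SE 0.19, adjusted p = 0.0072). Guide 3 was below and guide 5 above every control, a difference of −1.54 (SE 0.21, adjusted p = 0.0067). That difference was not called without guide 3 replicate 1 (adjusted p = 0.0654), guide 3 replicate 2 (0.0788) or guide 5 replicate 2 (0.0594, range 7.4e-09 to 0.0788 over 21 alternatives). Once GC content was corrected for, the fall against control was not called, while the difference between the guides was.

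In 3 of the 31, all named after their values were seen, guide 3 fell below control and guide 5 was not called against it. XBP1, a transcription factor of the unfolded protein response, stood at 78.1, 67.0 and 69.3 FPKM in the controls, 31.1 and 31.2 with guide 3 and 73.2 and 83.8 with guide 5. It fell with guide 3 by 1.18 on the log2 scale (SE 0.19, adjusted p = 0.0012), and guide 3 minus guide 5 was −1.32 (adjusted p = 0.014). SLC38A1, a glutamine transporter, stood at 3.94, 4.53 and 3.14, at 1.22 and 1.20, and at 3.98 and 4.29 (guide 3 minus guide 5 −1.44, adjusted p = 0.0070). NOG, encoding the BMP inhibitor noggin, stood at 1.97, 3.31 and 2.14, at 0.564 and 0.774, and at 2.45 and 2.03 (−1.23, adjusted p = 0.040). Guide 3 lay below the other two groups in all 3 genes, and each fall against control was called without every library in turn. The difference from guide 5 was not called without guide 3 replicate 1 (adjusted p = 0.209 for XBP1, 0.0951 for SLC38A1 and 0.431 for NOG), and likewise without guide 3 replicate 2 (0.176, 0.1 and 0.152), guide 5 replicate 1 (0.0983, 0.0563 and 0.249) or guide 5 replicate 2 (0.31, 0.102 and 0.187). NOG also missed it without control replicate 1 (0.0714) or 3 (0.0519).

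The core site of the ZFP36 family in RNA is UAUUUAU, written TATTTAT in DNA. Windows of 30 bases around 1 or more matches are shown for ZFP36L2, for 4 genes that differed between the guides (FCN1, PIM1, STC2 and IFI44L) and for IL1B. They come from the longest 3′ UTR of each gene among basic transcripts of GENCODE 29 (GRCh38), read 5′ to 3′ on the gene's strand, with each match in capitals. The places are chr2:43223448-43223477, minus strand, for ZFP36L2, chr9:134908192-134908221, minus, for FCN1, chr2:112829995-112830024, minus, for IL1B, chr6:37174986-37175015, plus, for PIM1, chr5:173317103-173317132, minus, for STC2, and chr1:78642882-78642911, plus, for IFI44L.
ZFP36L2: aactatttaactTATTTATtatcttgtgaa
FCN1: aggggagcaaggTATTTATcaaaaagtgct
IL1B: cgcttcccTATTTATTTATTTATttgtttg
PIM1: gttatgTATTTATTTATTTATTTATttggt
STC2: tttcacttttttTATTTATccagttatatc
IFI44L: agaaagttcttaTATTTATgctccaaataa

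In PIM1 4 matches overlap in 1 window, and in IL1B 3, while the other windows hold 1 each. The whole 3′ UTR holds 4 matches in PIM1 and in IL1B, 3 in ZFP36L2 and in STC2, and 1 in FCN1 and in IFI44L. Only the transcript strand was searched. At least 1 match was found in 1928 of 6410 tested genes with a 3′ UTR, 30.1%. The share was 22% of 1515 genes higher with guide 3 than in control and 43.8% of 1132 lower, but median UTR length differed as well, at 755 and 1815 bases. Matches per kilobase of UTR were 0.273 and 0.333, against 0.286 over all tested genes. Among genes higher with guide 3 than with guide 5 the share was 1 of 15, with FCN1 the 1, and among those lower it was 13 of 29. Median lengths there were 423 and 1007 bases, with 0.0682 and 0.529 matches per kilobase. The motif holds only A and T, and calls ran with GC content, whose part in these shares was not tested. No match was found in the 3′ UTR used for S100A8, S100A9 or S100A12. A match is a run of letters and does not show binding.

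Markers of other cell types were few. The table held 2 of 16 erythroid, 2 of 15 megakaryocyte, 3 of 19 T and NK cell, 1 of 14 B cell and 3 of 14 eosinophil, basophil and mast cell markers. Of the erythroid markers EPOR was higher with guide 3 than in control (0.69) and TFRC lower (−0.65). Summed FPKM of the T and NK markers was 23.5 to 39.1 in the controls, 87.3 and 90.8 with guide 3 and 68.8 and 85.7 with guide 5. Most of it came from NKG7, a granule membrane protein also found in myeloid cells (1.68 with guide 3). IL7R was also higher with guide 3 (0.55, adjusted p = 0.0316 by limma), but not called without control replicate 1 (adjusted p = 0.064). CD3D, of the T cell receptor complex, was lower with guide 3 than in control (−1.03), without guide 3 replicate 2 short of the threshold (adjusted p = 0.0606). The table also held 8 dendritic cell markers. Of those 4 were tested, 2 of them higher with guide 3, such as CLEC10A (1.97), and 1 lower (FLT3). Of 3 tested stem and progenitor markers limma called 0. Their part in the other results was not tested.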

How the data were processed

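The members, gene lists and tests were chosen with earlier results of these data known. Per the labels' protocols, RNA was poly(A)-selected, made into libraries with a directional kit and sequenced as single reads. The submitters' processing notes name the builds GRCh38.p7 and hg38 and the tools limma, edgeR, HTSeq and STAR 2.5.3, while roles, parameters and strand handling are not given in the sources used here. The deposited FPKM are per library. A second table by the authors holds log2 fold changes, p-values and false discovery rates of each guide, with group means of CPM. Of 11581 listed genes, 173 have no FPKM and were left out (28 of them are higher and 27 lower with guide 3, per the authors' deposited table). CPM divided by FPKM gave whole lengths (within 0.01 bases, median 30113.5), equal to the gene span in GENCODE 29 for 8064 genes and within 5% of it for 10382. FPKM times this length gave whole reads for 100% of values in each library, and 1 read was 0.0261 to 0.054 CPM. Reads have no molecular identifiers, so depth covers counting error alone.

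A two-sided limma fit (version 3.58.1, R 4.3.3) of log2(FPKM + 0.5) gave control, guide 3 and guide 5 a mean each, with a trend in the variance, 6.21 prior and 4 residual degrees of freedom. The procedure was tested on simulated data. Named genes are ZFP36L2, ZFP36, ZFP36L1, CD14 and ITGAM; the 12 highest and 10 lowest called differences from control and the 10 highest and 10 lowest from guide 5 without overlap of libraries; and up to 4 called members of each list against control and 3 against guide 5, some left out, and 1 gene chosen by this rule is not reported here. GC content and length are those of GENCODE transcripts. Alternatives were other pseudocounts, filters, scalings and weights, a replicate block, a correction for GC content and length, the compared groups alone, recovered reads as CPM or with voom, and each library left out; the crossed numbers were added after seeing the data. Figures were drawn with matplotlib 3.10.9.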

Additional observations from a re-analysis of the deposited data

Results flagged for a closer look

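The direct test of guide 3 against guide 5 differed from 0 for 19 genes that were higher and 31 that were lower with guide 3. TUBE1 was called lower than control with guide 3 and higher with guide 5, and its difference between the guides, −1.54, passed the same test. Groups of 2 or 3 libraries are too small for the gap test of a single outlying value. The fall of TUBE1 against control with guide 3 was not called after the correction for GC content and length.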

How the results depend on the processing

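Counts against control (1593 higher, 1166 lower) were 598 and 282 at a mean FPKM of at least 5, 1045 and 2557 with the same sum of FPKM, 2414 and 2152 with recovered CPM and 2502 and 2236 with voom. Quantile normalization gave 1825 lower. Counts against guide 5 (19 higher, 31 lower) were 48 and 49 without a filter, 4 and 5 at a mean FPKM of at least 5, 37 and 55 after quantile normalization, 10 and 59 with the same sum, 895 and 333 with library weights and 620 and 247 with the 4 guide libraries alone. With pseudocount 0.1 there were 11 higher and with recovered CPM 7. The lower count was 80 after the GC correction and 51 with voom. Leaving out 1 library in turn gave 649 to 1987 higher and 120 to 1577 lower against control, and 6 to 130 higher and 13 to 89 lower against guide 5. The cause of these moves was not tested. Replicate numbers were not used to pair the samples in the fit above. Deviations of same-numbered libraries correlated between −0.57 and 0.44. With 2 libraries a guide the deviations mirror each other, so the value between the guides, −0.57, is 1 number for both replicates. These correlations cannot decide whether any numbering pairs the samples. With the replicate block, 1837 genes were higher and 1563 lower than control, and 121 higher and 71 lower than with guide 5. The crossed pairing of the guide libraries, chosen after seeing the data, gave 2222 higher and 1057 lower. Of 2087 values of 102 named genes against control under 21 alternatives, 46 lost the call and 1 turned, ALOX12 at −0.18 after quantile normalization. Of 1126 values of 53 genes against guide 5 under 22 alternatives, 225 lost the call, 13 gained it and 0 turned. With 2 guide 3 libraries the spread is thinly known, and leaving out 1 assumes that the other varies like the rest.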
